A study of Homo sapiens with 6 samples.

Results

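Genes that govern the passage of a cell from G1 into S phase were followed in T98G cells in which the kinase DYRK1A had been knocked down. They are 10 in number, namely the D-type cyclins CCND1, CCND2 and CCND3, the E-type cyclins CCNE1 and CCNE2, the kinases CDK4 and CDK6, the inhibitors CDKN1A (p21) and CDKN1B (p27), and the transcription factor E2F1. They were selected by gene name from the deposited tables. The rule itself uses no measured value, but the members were chosen with earlier results of these data known. Of the 10, 9 are among the 23026 genes in the deposited table of normalized counts, and all 9 were expressed above the filter used for testing, which left 9697 genes. The remaining gene, CCND2, had no read in any library.

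D-type cyclins are made in response to growth factors and bind CDK4 or CDK6, and the resulting kinases phosphorylate the retinoblastoma protein RB. Phosphorylated RB releases E2F factors, which switch on the E-type cyclins and the enzymes of DNA replication, and cyclin E bound to CDK2 completes the phosphorylation of RB. The proteins p21 and p27 bind these complexes and hold CDK2 inactive. DYRK1A is a protein kinase known to phosphorylate cyclin D1, which marks that protein for degradation, and p27, which stabilizes it. Those effects act on proteins, whereas the values described here are transcript levels.

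T98G is a human glioblastoma cell line, grown in DMEM with serum. The cells were infected with a lentivirus for a short hairpin RNA, either a control hairpin (shControl) or one against DYRK1A (shDYRK1A), then selected with puromycin and left to recover, and both groups went through the same infection and selection. Each group comprised 3 libraries, named 1A, 1B and 1C, and before extraction equal numbers of T98G cells had been mixed with a fixed number of Drosophila Kc167 cells, whose RNA served as an external scale. Values per library are given in the order 1A, 1B, 1C throughout. The labels name a single hairpin against DYRK1A and no rescue. The labels do not say whether the letters mark separate cultures, so that the p-values measure the spread between these libraries, which may be technical.

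Gene counts summed to between 39502742 and 42154438 in the shControl libraries and to between 33708297 and 40440545 in the shDYRK1A libraries. The constants by which the authors divided the counts ran from 0.821 to 1.03 in shControl and from 1.06 to 1.21 in shDYRK1A. The library shDYRK1A 1B stood apart from the other 2 of its group, with the lowest total and the highest share of unmapped reads, 15.6%. That share was 8.44 to 10.7% in shControl and 10.8 to 15.6% in shDYRK1A, so that the groups did not overlap. Among the shControl libraries, 1C had the lowest normalized total, 40116360 against 48090252 and 47835662. The part of these differences in the results was not tested. DYRK1A itself (ENSG00000157540, GRCh38, chromosome 21, 37365790 to 37517450, plus strand) had normalized counts of 2227, 2234 and 1895 in the shControl libraries, and of 1482, 1056 and 1285 after knockdown, a mean of 60.2% of control (log2 fold change -0.73, edgeR adjusted p = 5.33e-06). Relative to the other human genes it went from 46.7 ± 0.465 to 37.6 ± 3.41 CPM, a TMM fold change of -0.34 (adjusted p = 0.000591), and of the 6 fits that left out 1 library 3 called it lower. The mesenchymal markers VIM, CD44 and FN1 were abundant in all 6 libraries, between 613 and 1975 CPM (counts per 1000000 counts of the library). The glial markers GFAP and SOX2 stayed at or below 0.0949 CPM, and NES lay between 1.29 and 2.02 CPM. Of the markers of other cell types, the 3 neuronal genes summed to 36.1 to 37.1 CPM in shControl and to 13.6 to 18.6 CPM in shDYRK1A, nearly all of it MAP2, with RBFOX3 at 0 to 0.0253 CPM. The 3 epithelial genes summed to 20.2 to 22.1 CPM in shControl and to 30.3 to 34.3 CPM in shDYRK1A, nearly all of it KRT8, with CDH1 at 0 to 0.0516 CPM. Leukocyte and endothelial markers, 3 of each, summed to at most 1.38 CPM in every library. The part of any of these markers in the results on the G1 genes was not tested.

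Promoter windows from RefSeq (GRCh38.p14) run from 250 bases before to 50 bases after an annotated start. Windows of 7 of the 10 genes were searched, 10 windows in all. No window of CCND1, CCND2 or CCNE2 was searched. CCNE2 lies on a chromosome that was left out of the search of the members, so that this does not mean that it has no window. CCND1 and CCND2 lie on chromosomes that were searched, and no window under their names was found. The windows were searched on both strands for the E2F sites TTTGGCGC and TTTCGCGC, for the cell cycle homology region TTTGAA and for the palindromic element that the study assigns to DYRK1A. The second E2F site and the palindromic element have the bases CGCG in common. Among all 35116 windows of the table, 1.15% hold either E2F site, 0.652% the first and 0.515% the second, while 15.2% hold TTTGAA and 0.424% the palindromic element. No chromosome was left out of these shares, unlike in the search of the members. A single match was found in the 10 windows, a TTTGGCGC that begins 20 bases before the start of E2F1. A match is a string of letters and not proof of a bound site, and its absence from a window of this length says nothing about the factor.

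The windows of E2F1 and CCNE1, both lower after DYRK1A knockdown, and of CDKN1A and CDKN1B, which did not pass the test, are given 5′ to 3′ on the strand of the gene, with the E2F site in capitals. They lie at chr20:33686336-33686635 on the minus strand for E2F1, at chr19:29811741-29812040 on the plus strand for CCNE1, at chr6:36678464-36678763 on the plus strand for CDKN1A and at chr12:12717118-12717417 on the plus strand for CDKN1B. G and C make up 73.3% of the E2F1 window, 81.0% of that of CCNE1, 74.3% of that of CDKN1A and 62.3% of that of CDKN1B.
E2F1: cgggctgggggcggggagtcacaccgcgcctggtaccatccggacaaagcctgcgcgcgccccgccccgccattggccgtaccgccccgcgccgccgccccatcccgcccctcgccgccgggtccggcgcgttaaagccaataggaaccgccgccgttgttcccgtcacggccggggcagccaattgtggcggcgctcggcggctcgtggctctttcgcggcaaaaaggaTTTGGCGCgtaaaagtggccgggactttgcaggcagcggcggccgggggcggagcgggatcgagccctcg
CCNE1: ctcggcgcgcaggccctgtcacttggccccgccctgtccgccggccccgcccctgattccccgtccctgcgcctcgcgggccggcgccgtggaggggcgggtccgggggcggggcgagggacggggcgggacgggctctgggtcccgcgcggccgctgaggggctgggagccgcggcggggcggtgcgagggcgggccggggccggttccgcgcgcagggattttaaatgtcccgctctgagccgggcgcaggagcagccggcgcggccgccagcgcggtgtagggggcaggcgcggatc
CDKN1A: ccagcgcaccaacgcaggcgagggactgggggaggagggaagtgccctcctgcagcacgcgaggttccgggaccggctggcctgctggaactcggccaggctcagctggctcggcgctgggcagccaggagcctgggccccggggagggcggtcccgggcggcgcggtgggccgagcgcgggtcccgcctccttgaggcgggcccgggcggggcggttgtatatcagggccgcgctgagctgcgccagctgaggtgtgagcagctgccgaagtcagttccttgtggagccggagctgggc
CDKN1B: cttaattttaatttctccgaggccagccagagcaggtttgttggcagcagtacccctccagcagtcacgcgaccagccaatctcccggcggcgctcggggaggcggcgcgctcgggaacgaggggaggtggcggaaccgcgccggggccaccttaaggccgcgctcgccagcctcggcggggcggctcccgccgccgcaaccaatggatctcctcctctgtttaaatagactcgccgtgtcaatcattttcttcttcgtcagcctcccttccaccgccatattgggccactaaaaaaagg

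After DYRK1A knockdown, the transcripts of the expressed cyclins, of both kinases and of E2F1 were lower per spike-in, and those of the 2 inhibitors did not pass the test. The E-type cyclins had the lowest values, at 44.9% of control for CCNE1 and 43.4% for CCNE2, followed by E2F1 at 52.2%, CCND1 at 53.2%, CDK6 at 57.2%, CCND3 at 61.9% and CDK4 at 68.4%. CDKN1B stood at 89.5% and CDKN1A at 118% of control. These percentages compare means of normalized counts, that is, read counts divided by the spike-in constant of the library (n = 3 per group). Because equal numbers of cells were intended to enter each mix, normalized counts compare transcript amounts per cell, and in bulk RNA fewer T98G cells in the mix, less mRNA per cell and another share of cells in each cell cycle phase cannot be told apart.

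Most human transcripts were lower on this scale, so the members were read against that background. In edgeR's quasi-likelihood test over 9697 genes, 63.4% of all genes were lower at an adjusted p below 0.05, as were 7 of the 9 members, and 1.08% were higher, as was none of the 9. With the additional demand of a log2 fold change below -0.7, which 14.3% of the genes met, 5 of the 9 members were called lower, namely CCND1, CCNE1, CCNE2, CDK6 and E2F1. Above 0.7, where 0.278% of all genes were called, no member was found. In edgeR's test no member was higher at an unadjusted p below 0.05 either. DESeq2's Wald test, at an adjusted p below 0.05, also found 0 members higher, with CDKN1A at an adjusted p of 0.0593. The median log2 fold change was -0.80 over the 9 members and -0.40 over all tested genes.

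The same 9 genes were then scaled by the human genes alone (TMM), which sets the median of all tested genes to 0.00 and moves every fold change up by about 0.40. On that scale 7 of the 9 members were lower at an adjusted p below 0.05, where 28.6% of all genes were, and 2 were higher, CDKN1A and CDKN1B, where 27.3% of all genes were. Past a log2 fold change of -0.7 only CCNE1 and CCNE2 remained called, 2 of 9 against 1.93% of all genes, and none was called above 0.7, against 1.25%. The order of the members was the same under both scalings, and the median of the 9 was -0.40 under TMM.

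**Figure D1:**
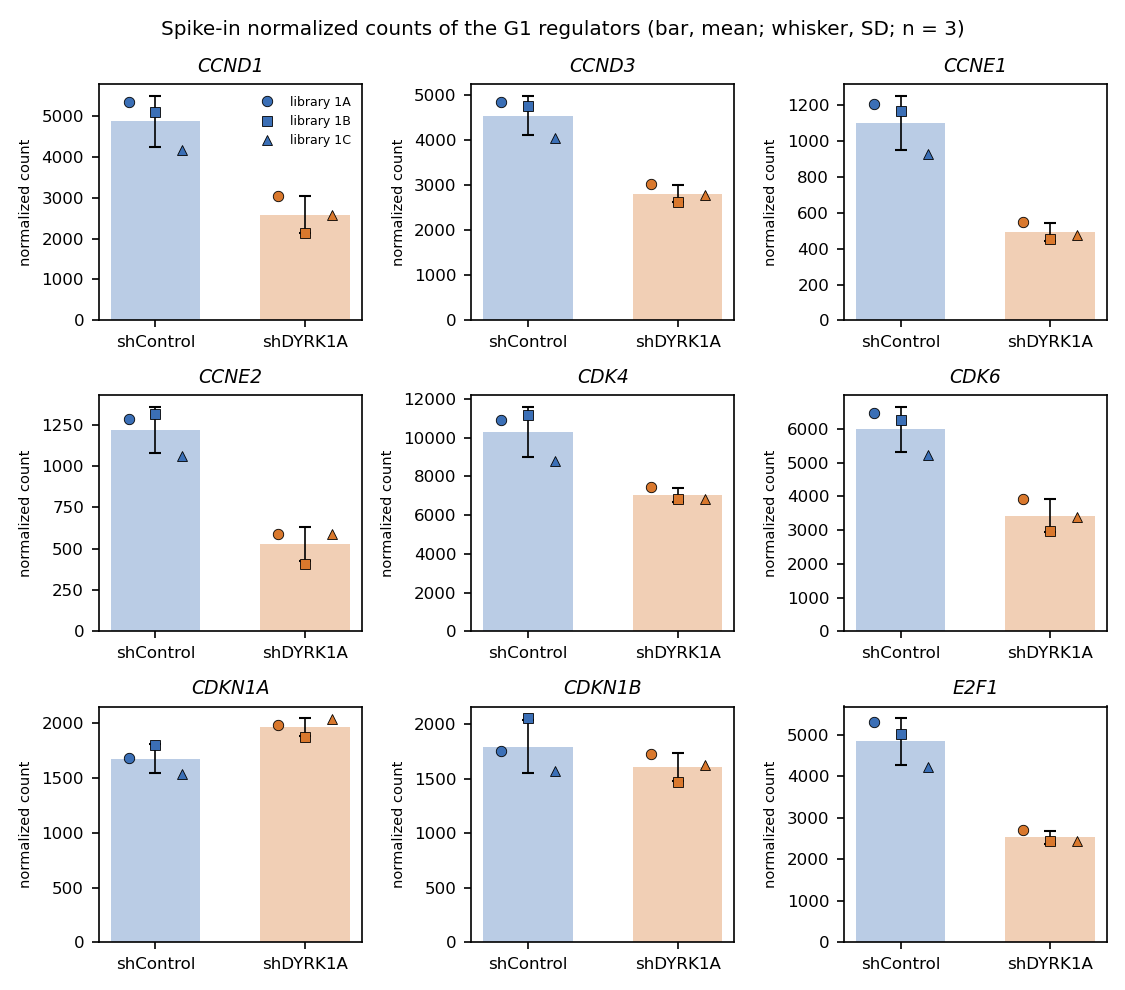
Spike-in normalized counts (vertical axes, each from 0) of the 9 expressed G1 regulators in the 3 shControl (blue) and 3 shDYRK1A (orange) libraries, with the mean as a bar and the SD as a whisker. The shDYRK1A libraries lie below all shControl libraries for the cyclins, for both kinases and for E2F1, above them for CDKN1A and among them for CDKN1B.

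Among the D-type cyclins, CCND1 and CCND3 were expressed and lower after knockdown, and CCND2 was not detected. CCND1 (ENSG00000110092, chromosome 11, 69641087 to 69654474, plus strand), which encodes cyclin D1, had normalized counts of 5337, 5105 and 4161 in the shControl libraries and of 3051, 2131 and 2580.0 in the shDYRK1A libraries. The groups did not overlap, and shDYRK1A 1B was the lowest library. The mean went from 4868 ± 623 to 2587 ± 460 normalized counts (SD, n = 3), a log2 fold change of -0.91 ± 0.14 (SE; 95% interval -1.19 to -0.64, edgeR adjusted p = 1.92e-09). Of all tested genes, 4.89% had a lower value. Relative to the other human genes the fall was smaller, from 107 ± 3.64 to 76.3 ± 7.56 CPM, and the TMM fold change was -0.51 (adjusted p = 2.9e-05). On the opposite strand, 10.3% of the exon bases of CCND1 are shared with LTO1.

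CCND3 (ENSG00000112576, chromosome 6, 41934933 to 42050357, minus strand), the cyclin D3 gene, had normalized counts of 4834, 4751 and 4035 in shControl and of 3019, 2629 and 2789 in shDYRK1A. Each shDYRK1A library was below each shControl library. With means of 4540.0 ± 440 and 2812 ± 196 (SD, n = 3), the log2 fold change was -0.69 ± 0.14 (SE), just short of the threshold of -0.7, and the edgeR adjusted p was 6.22e-06. In CPM the libraries hardly varied within a group, at 99.3 to 101 in shControl and 82.4 to 84.2 in shDYRK1A, and the TMM fold change was -0.28 (adjusted p = 0.000209). Leaving out 1 library at a time gave -0.77 to -0.64, past -0.7 in 2 of the 6 fits.

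CCND2 (ENSG00000118971, chromosome 12, 4273772 to 4305350, plus strand in GENCODE v29), the cyclin D2 gene, had 0 counts in each of the 6 libraries. A count of 0 allows up to 3 counts, or 0.0712 to 0.089 CPM depending on the library, for counting error only, and no fold change is given. Within the expressed pair, CCND1 made up 57.0%, 56.3% and 55.3% of the D-type cyclin counts per kilobase of exon in shControl and 54.8%, 49.3% and 52.6% in shDYRK1A. The share was thus lower in each shDYRK1A library, with a mean difference of -3.97 percentage points. The two-sided exact permutation p was 0.1, below which 3 libraries against 3 cannot go (0.133 after Benjamini-Hochberg adjustment over the 4 shares compared).

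The E-type cyclins, which activate CDK2 at the end of G1, had the lowest fold changes of the members. CCNE1 (ENSG00000105173, chromosome 19, 29811898 to 29824308, plus strand) had normalized counts of 1208, 1168 and 928 in the shControl libraries and of 550, 456 and 477 in the shDYRK1A libraries. The highest shDYRK1A library was well below the lowest shControl library. The log2 fold change was -1.15 ± 0.16 (SE; 95% interval -1.46 to -0.85, edgeR adjusted p = 1.28e-11), and 1.47% of all tested genes had a lower value. Under TMM the fold change was -0.75 (adjusted p = 2.61e-06), with 23.1 to 25.1 CPM in shControl and 14.3 to 15.0 CPM in shDYRK1A.

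CCNE2 (ENSG00000175305, chromosome 8, 94879770 to 94896678, minus strand) had normalized counts of 1282, 1317 and 1058 in shControl and of 589, 410 and 589 in shDYRK1A. Again the groups were apart, with shDYRK1A 1B the lowest. The mean went from 1219 ± 140 to 529 ± 103 (SD, n = 3), and the log2 fold change was -1.20 ± 0.16 (SE; edgeR adjusted p = 1.21e-12), or -0.80 under TMM (adjusted p = 1.37e-05). Only 1.15% of the tested genes had a lower value. The exons of CCNE2 share 37.1% of their bases with INTS8 and AC087752.4 on the opposite strand. The strand setting of the authors' counting is not given in the sources used here. Reads there could belong to either, or may have been left out as ambiguous.

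A difference in the proportion of the 2 E-type cyclins was not detectable. CCNE1 made up 61.9%, 60.4% and 60.2% of the E-type counts per kilobase in shControl and 61.7%, 65.7% and 58.3% in shDYRK1A. These ranges overlap, with a mean difference of 1.04 percentage points (two-sided exact permutation p = 0.8), and shDYRK1A 1B held the highest share.

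Both G1 kinases were lower, with CDK6 at a lower percentage of control than CDK4. CDK4 (ENSG00000135446, chromosome 12, 57747727 to 57756013, minus strand) had normalized counts of 10903, 11182 and 8788 with the control hairpin and of 7463, 6826 and 6830.0 with the DYRK1A hairpin. The groups were apart, but shControl 1C came close to the shDYRK1A libraries. Its mean of 10291 ± 1309 in shControl and 7040.0 ± 367 in shDYRK1A (SD, n = 3) gave a log2 fold change of -0.55 ± 0.13 (SE; edgeR adjusted p = 0.000172), and 29.4% of all tested genes had a lower value. In CPM the groups nearly met, with 219 to 234 in shControl and 204 to 219 in shDYRK1A, and the TMM fold change was -0.14 (adjusted p = 0.0347). TSPAN31 lies on the opposite strand over 43.2% of the exon bases of CDK4, so that reads there are uncertain as well.

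CDK6 (ENSG00000105810, chromosome 7, 92604921 to 92836594, minus strand), the partner kinase of the same cyclins, had normalized counts of 6479, 6258 and 5225 in shControl and of 3929, 2962 and 3392 in shDYRK1A. No shDYRK1A library reached the level of a shControl library. CDK6 had a log2 fold change of -0.80 ± 0.14 (SE; 95% interval -1.07 to -0.53, edgeR adjusted p = 8.3e-08), with 8.15% of all tested genes lower, and one of -0.40 under TMM (adjusted p = 2.34e-05). CDK6 made up 13.3%, 12.6% and 13.3% of the summed CDK4 and CDK6 counts per kilobase in shControl and 12.0%, 10.1% and 11.4% in shDYRK1A. The shares did not overlap, and their difference of -1.94 percentage points gave p = 0.1 in the two-sided exact permutation test (0.133 adjusted).

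Neither inhibitor of the Cip and Kip family passed the test on the spike-in scale, and both were higher relative to the other human genes. CDKN1A (ENSG00000124762, chromosome 6, 36676460 to 36687339, plus strand), which encodes p21, had normalized counts of 1685, 1800.0 and 1537 in shControl cells and of 1988, 1878 and 2039 in shDYRK1A cells. Each shDYRK1A library was above each shControl library. The mean was 1674 ± 132 in shControl and 1968 ± 82.1 in shDYRK1A (SD, n = 3), a log2 fold change of 0.23 ± 0.15 (SE; 95% interval -0.05 to 0.52), which did not pass the test (edgeR adjusted p = 0.141). Of all tested genes, 1.7% had a higher value. Relative to the other human genes it rose, from 37.0 ± 1.73 to 58.5 ± 3.76 CPM, with a TMM fold change of 0.64 (adjusted p = 9.28e-06).

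CDKN1B (ENSG00000111276, chromosome 12, 12715058 to 12722371, plus strand), which encodes p27, had normalized counts of 1755, 2062 and 1576 in shControl and of 1725, 1468 and 1632 in shDYRK1A. The groups overlapped, with shControl 1B highest and shDYRK1A 1B lowest. The log2 fold change of -0.16 ± 0.15 (SE; 95% interval -0.45 to 0.13) did not pass the test (edgeR adjusted p = 0.321). Its sign turned under TMM, to 0.24 (adjusted p = 0.0061), where all 3 shDYRK1A libraries, at 47.0 to 49.0 CPM, were above the shControl libraries, at 36.5 to 43.1 CPM. CDKN1A made up 46.9%, 44.6% and 47.3% of the counts per kilobase of the 2 inhibitors in shControl and 51.5%, 54.1% and 53.5% in shDYRK1A. The share was higher in each shDYRK1A library, by 6.76 percentage points on average (two-sided exact permutation p = 0.1, 0.133 adjusted).

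E2F1 (ENSG00000101412, chromosome 20, 33675683 to 33686404, minus strand), whose product drives the transcription of S phase genes and of E2F1 itself, had normalized counts of 5304, 5032 and 4218 in shControl cells and of 2718, 2434 and 2450.0 in shDYRK1A cells. The shDYRK1A libraries lay close together and well below the lowest shControl library, 1C. From 4851 ± 565 to 2534 ± 160 normalized counts (SD, n = 3), the log2 fold change was -0.94 ± 0.14 (SE; 95% interval -1.21 to -0.66, edgeR adjusted p = 6.81e-10), and 4.3% of all tested genes had a lower value. Under TMM it was -0.53 (adjusted p = 6.46e-06), with 105 to 110 CPM in shControl and 73.5 to 77.9 CPM in shDYRK1A.

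The 2 groups of libraries did not overlap in normalized counts for 8 of the 9 expressed members. Of these, 7 were lower in shDYRK1A, where 63.6% of all tested genes were, and CDKN1A was higher, where 1.59% of all tested genes were. In CPM the groups were apart for all 9 members, with 7 lower against 29.3% of all tested genes and 2 higher against 33.5%. The count of members lower in normalized counts was therefore near the background, 7 of 9 against 63.6%, while in CPM it was 7 of 9 against 29.3%.

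**Figure D2:**
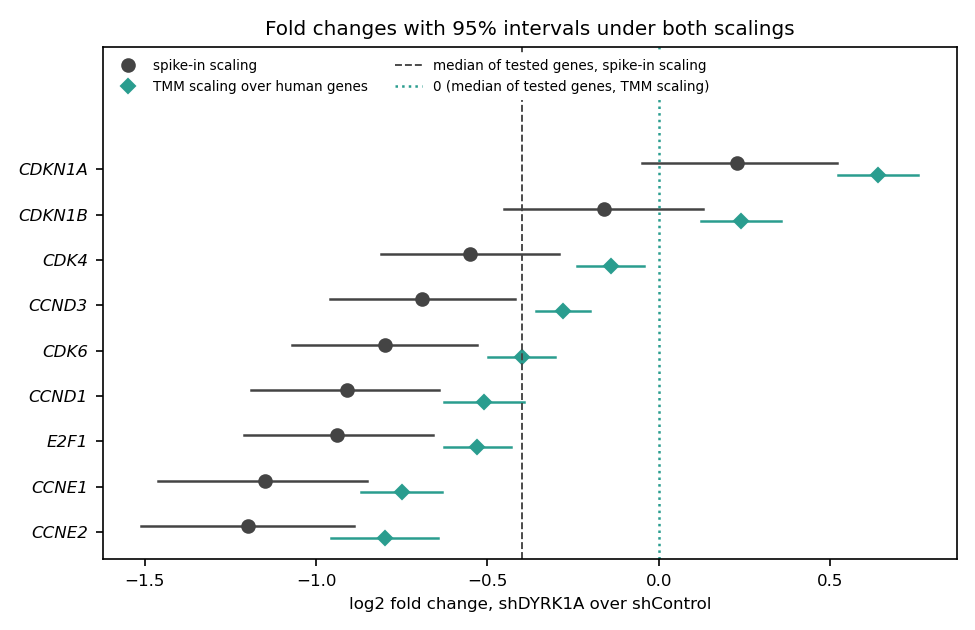
Log2 fold changes (horizontal axis, shDYRK1A over shControl) of the 9 expressed G1 regulators with 95% intervals, under spike-in scaling (grey circles) and under TMM scaling over human genes (green diamonds). The dashed line marks the median of all tested genes under spike-in scaling, -0.40, and 7 of the 9 genes lie to its left, from CDK4 at -0.55 to CCNE2 at -1.20, while CDKN1B and CDKN1A lie to its right.

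Levels were compared between genes as normalized counts per kilobase of exon. In shControl cells CDK4 had the highest level, 3248 ± 413 per kilobase (SD, n = 3), followed by E2F1 with 1938 ± 226 and CCND1 with 1008 ± 129, and these 3 did not overlap with their neighbors. CCND3 with 783 ± 75.8, CDKN1B with 640 ± 87.4, CDKN1A with 549 ± 43.1, CDK6 with 488 ± 54.6 and CCNE1 with 432 ± 59.3 formed a chain in which the range of each gene overlapped with that of the next, although within each of the 3 libraries the order was the same. CCNE2 was the lowest expressed member, with 277 ± 32.0 per kilobase.

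In shDYRK1A cells both inhibitors had a higher mean level per kilobase than the D-type cyclins. CDK4 with 2222 ± 116 and E2F1 with 1012 ± 63.9 per kilobase (SD, n = 3) still led, and CDKN1A followed with 645 ± 26.9, CDKN1B with 572 ± 46.2, CCND1 with 536 ± 95.3 and CCND3 with 485 ± 33.8. CDKN1B and CCND1 overlapped, as did CCND1 and CCND3. CDK6 with 280 ± 39.5, CCNE1 with 194 ± 19.4 and CCNE2 with 120 ± 23.4 per kilobase were apart from each other. Exon lengths were those of all annotated transcripts merged, from 2.50 kb for E2F1 to 12.26 kb for CDK6, so that a gene of which T98G cells use a short transcript is placed too low. Reads left out as ambiguous over exons shared with other genes would also place CDK4 and CCNE2 too low, here and in the shares.

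**Figure D3:**
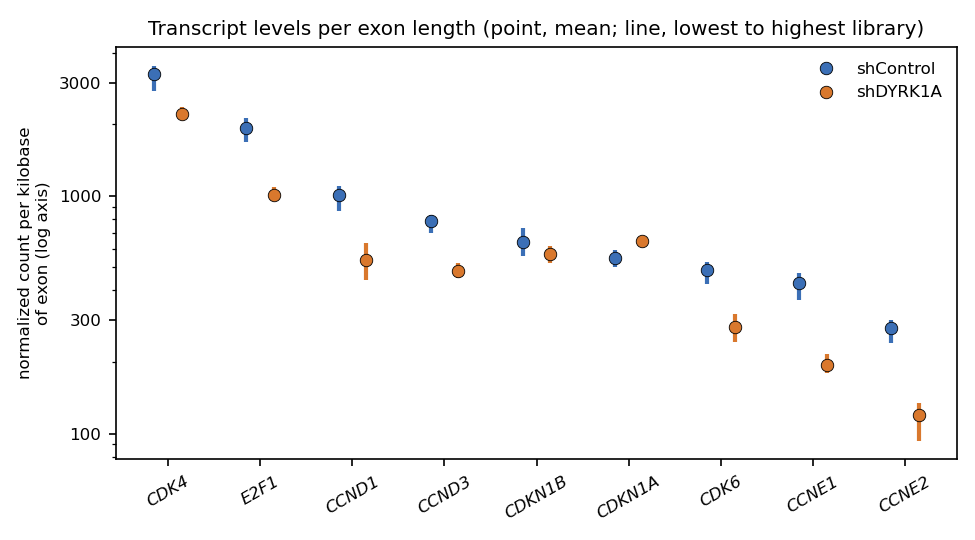
Normalized counts per kilobase of exon (vertical axis, log scale) of the 9 expressed G1 regulators in shControl (blue) and shDYRK1A (orange) cells, ordered by the shControl level, with the mean of 3 libraries as a point and the lowest to highest library as a line. The shDYRK1A points lie below the shControl points except for CDKN1A, 645 against 549 per kilobase.

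The proportion of inhibitor to cyclin transcripts within a library does not depend on the scaling, and 4 such ratios were formed after the single values had been seen, as a description without a test. In shControl cells CDKN1A was less abundant per kilobase than CCND1, with log2 ratios of -1.0, -0.84 and -0.77, and in shDYRK1A cells it was more abundant, with 0.05, 0.48 and 0.32. The mean log2 ratio moved by 1.15. That of CDKN1A to CCNE1 moved by 1.39, from 0.35 ± 0.12 to 1.74 ± 0.13 (SD, n = 3). For CDKN1B the ratio to CCND1 moved by 0.76, from -0.66 ± 0.15 to 0.11 ± 0.14, and the ratio to CCNE1 by 1.0, from 0.57 ± 0.15 to 1.56 ± 0.06. In all 4 ratios each shDYRK1A library was above each shControl library. This follows from the CPM values, in which both inhibitors were higher and both cyclins lower without overlap, and adds nothing to them. Among all tested genes, 33.5% were higher and 29.3% lower without overlap in CPM.

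**Figure D4:**
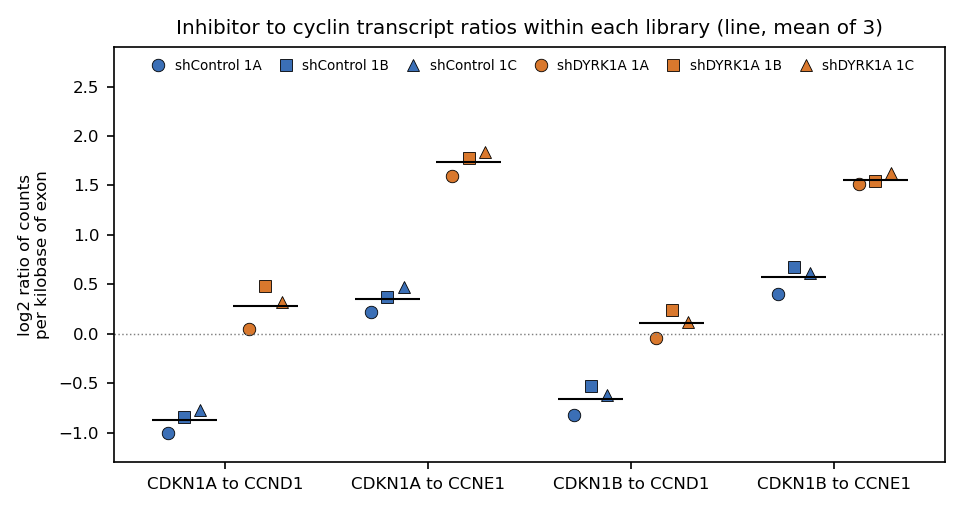
Log2 ratio of inhibitor to cyclin counts per kilobase of exon (vertical axis) in each of the 6 libraries, for CDKN1A and CDKN1B over CCND1 and CCNE1, with the mean of each group as a line. The shDYRK1A libraries (orange) lie above the shControl libraries (blue) in all 4 ratios, with differences of the means from 0.76 to 1.39.

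The other genes of this step were examined as 5 lists, each described by its median and by how many genes passed edgeR's test at an adjusted p below 0.05. Of 12 pocket proteins and E2F factors 11 were tested, and 9 of them fell, where 63.4% of all tested genes did, 0 rose and 2 did not pass. The median log2 fold change was -0.65 against -0.40 over all genes. RB1, the retinoblastoma gene, went from 2776 ± 313 to 1764 ± 314 normalized counts (SD, n = 3; log2 fold change -0.65, adjusted p = 3.02e-05), and its TMM value was -0.25 (adjusted p = 0.00831). E2F2, an activating E2F factor, had the lowest value, -0.92 (adjusted p = 1.67e-07), and E2F4, which mainly acts as a repressor with the pocket proteins, the highest, -0.26 (adjusted p = 0.0848). Under TMM, E2F4 was at 0.15 (adjusted p = 0.0187). E2F5 was under the filter on low counts.

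All 6 tested genes among 8 other cyclins, kinases and activators of the G1/S step fell, under both scalings, where 63.4% of all tested genes fell under spike-in scaling and 28.6% under TMM. Their median was -0.80 against -0.40 over all genes. CDK2, the kinase of cyclin E, went from 4168 ± 329 to 2187 ± 289 normalized counts (SD, n = 3), a log2 fold change of -0.93 (adjusted p = 1.28e-09) and of -0.53 under TMM (adjusted p = 5.91e-06). CDC25A, the phosphatase that activates CDK2, had the lowest value, -0.96, and MNAT1, the assembly factor of the CDK-activating kinase, the highest, -0.60. CDK3 and CCNA1 were under the filter.

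Of 6 inhibitors other than p21 and p27, only CDKN2B and CDKN3 passed the filter on low counts, and CDKN1C, CDKN2A, CDKN2C and CDKN2D did not. CDKN2B, which encodes the CDK4 and CDK6 inhibitor p15, had 562 ± 87.1 and 499 ± 61.2 normalized counts (SD, n = 3), a log2 fold change of -0.17 (adjusted p = 0.35) and a TMM value of 0.24 (adjusted p = 0.0185). CDKN3, a phosphatase that acts on CDK2, fell by 0.48 on the log2 scale (adjusted p = 0.00258), which did not hold under TMM (-0.07, adjusted p = 0.321). CDKN2A, which encodes p16 and ARF, was barely detected, with 9.98 ± 1.12 and 5.16 ± 2.18 normalized counts, and CDKN2C (p18) had 0 counts in every library.

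Among 19 genes for the turnover of G1 cyclins and p27, 17 were tested, and 10 fell, where 63.4% of all tested genes did, 0 rose and 7 did not pass, so that the count was near the background. The median was -0.50 against -0.40 over all genes. Under TMM 8 were lower and 5 higher, against 28.6% and 27.3% of all tested genes, with a median of -0.09. SKP2, the F-box protein that recognizes p27, fell from 2611 ± 221 to 1563 ± 218 normalized counts (SD, n = 3; log2 fold change -0.74, adjusted p = 2.62e-06), and its cofactor CKS1B fell by 0.50 on the log2 scale (adjusted p = 0.000881) but was at -0.09 under TMM (adjusted p = 0.142). FBXW7, the receptor for cyclin E, was at -0.29 (adjusted p = 0.094), and AMBRA1, the receptor for cyclin D proteins, had the highest value, -0.10 (adjusted p = 0.553), and rose under TMM (0.30, adjusted p = 0.00154). The lowest value belonged to DTL, the receptor through which p21 is degraded in S phase, at -1.18 (adjusted p = 1.04e-14).

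E2F target genes of DNA replication fell without exception among the 22 tested, where 63.4% of all tested genes fell, with a median of -0.81 against -0.40 over all genes. RRM2, a subunit of ribonucleotide reductase, had the lowest value, -1.20 (adjusted p = 1.9e-16), and MCM7, a subunit of the replicative helicase, shared the highest, -0.53 (adjusted p = 0.000227), with TK1. Of the 22, 21 were also lower under TMM, against 28.6% of all tested genes, where the median was -0.41 and TK1 was at -0.12 (adjusted p = 0.0548).

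**Figure D5:**
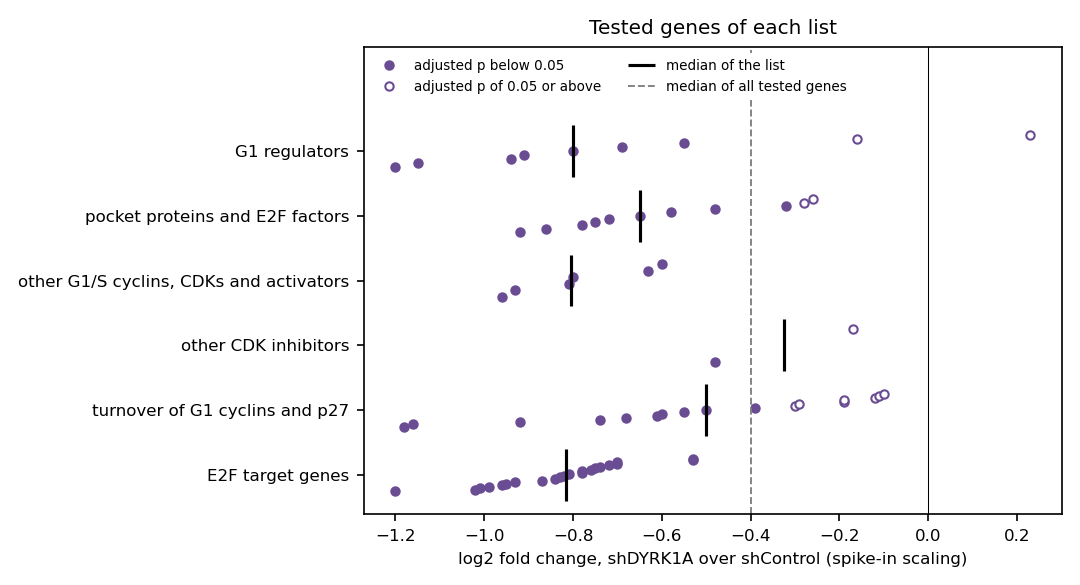
Log2 fold changes (horizontal axis, spike-in scaling, shDYRK1A over shControl) of the tested genes in each list, with filled points for an adjusted p below 0.05, a black line for the median of the list and a dashed line for the median of all tested genes, -0.40. All 22 E2F targets lie to the left of the dashed line, while genes of the turnover list lie on both sides of it.

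For CCND1, CDKN1B and E2F1 the tested genes with the most similar course over the 6 libraries were sought, by Pearson's r of log2 normalized counts less the mean of the library. The libraries fall into their 2 groups, so that r mainly ranks genes by a like difference between the groups and is given as a description. Most like CCND1 were FAM126A (r = 0.9996), LMAN1 (0.9986) and MAPK1IP1L (0.9985), and 10.7% of all genes exceeded an r of 0.95 with it. Most like CDKN1B were TTYH3 (r = 0.9991), E2F4 (0.9947) and PDE6D (0.9944), with 2.07% of all genes above 0.95. For E2F1 they were PCNA (r = 0.9993), EIF3E (0.9990) and H2AFZ (0.9986), with 8.56% of all genes above 0.95. PCNA is a target of E2F factors and belongs to the list above, with a log2 fold change of -1.02.

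Leaving out 1 library at a time kept the direction of all 9 members. CCND1 ranged from -1.05 to -0.79, CCNE1 from -1.26 to -1.08, CCNE2 from -1.29 to -1.05, CDK4 from -0.65 to -0.48, CDK6 from -0.91 to -0.71 and E2F1 from -1.03 to -0.87, each with an edgeR adjusted p below 0.05 in all 6 fits. CDKN1A ranged from 0.18 to 0.29 with adjusted p of 0.125 to 0.35, and CDKN1B from -0.25 to -0.05 with adjusted p of 0.0905 to 0.824, so that neither passed the test in any of them. Without shDYRK1A 1B, the library that stood apart, CCND1 was at -0.79, CCND3 at -0.64, CCNE1 at -1.10, CCNE2 at -1.05, CDK4 at -0.53, CDK6 at -0.71 and E2F1 at -0.91, and the same 5 members were called lower. The difference in the share of CCND1 was then -2.5 percentage points, that of CDK6 -1.41 and that of CDKN1A 6.23.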

How the data were processed

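Messenger RNA was sequenced from 6 libraries of T98G cells, 3 per group, with a stranded paired-end kit. Group and letter came from the sample titles. The authors deposited whole-number gene counts per library, made after alignment with STAR to hg38 and dm3, for 58174 human gene identifiers. Whether their counting used the strand, and its annotation, are not given in the sources used here. They also deposited the normalized signal of 23026 genes, which equals the counts divided by 1 constant per library, derived by the authors from the fly reads. Unmapped (8.44 to 15.6%), multimapping (2.26 to 2.49%), feature-less (3.66 to 4.81%) and ambiguous reads (3.42 to 3.59%) stayed out of library sizes and tests. A further table with the authors' own log2 fold changes, standard errors, test statistic and p-values was not used.

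Here the constants entered edgeR 4.0.16 (R 4.3.3; quasi-likelihood test, robust) as normalization of the raw counts. Genes with a mean normalized CPM above 10, 9697 in all, were tested together, with Benjamini-Hochberg adjustment, and called genes are those with a log2 fold change past 0.7 in either direction whose adjusted p was under 0.05. Standard errors are those implied by the test, and intervals span 1.96 of them. CPM are counts per 1000000 gene counts of the library and carry no spike-in information. Shares of counts per kilobase of merged exons (GENCODE v29, to which the start and end of 96.2% of the matched genes were identical) were compared by two-sided exact permutation tests in Python 3.11.15 with scipy 1.17.1. The fit was tested on simulated counts. Named are the 10 members, DYRK1A, the lowest and highest tested gene of each list, CDK2, RB1, CDKN2A, CDKN2B, CDKN2C, SKP2, CKS1B, FBXW7 and AMBRA1, and the 3 genes most like CCND1, CDKN1B and E2F1. A further list and other genes that the rule names are not reported here. Members and lists were chosen with earlier results of these data known. As alternatives, counts were scaled by TMM or by median of ratios, tested with DESeq2 1.42.0, filtered by filterByExpr or at 1 count, blocked by replicate letter, and fitted without each library in turn. Calls by adjusted p alone under TMM were added after the data were seen.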

Additional observations from a re-analysis of the deposited data

How the results depend on the processing

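The direction of 8 of the 9 expressed members held under all 12 alternatives, and CDKN1B turned to 0.24 under TMM and 0.25 under median-of-ratios scaling (adjusted p = 0.0061 and 0.00529). CDKN1A passed the test under both, at 0.64 each. Under either scaling, members called lower went from 5 to 2, and genes called lower from 1386 to 187 (TMM) or 184 (median of ratios), and genes called higher from 27 to 121 or 125. By adjusted p alone under TMM, a rule added after the data were seen, 2 members were higher. filterByExpr called 2492 genes lower and 229 higher among 17530, as more genes of low counts were tested. A filter of 1 count called 2468 and 224 among 32001. Under filterByExpr 2 of the 4 other inhibitors tested were lower at an adjusted p below 0.05. Their median of -0.37 was that of all tested genes, also -0.37. DESeq2 called 1386 genes lower and 27 higher.

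Leaving out 1 library gave 5 to 6 members and 908 to 2093 genes called lower, and 0 members and 16 to 32 genes called higher. The genes called lower numbered 908 without shDYRK1A 1B, 2083 without shDYRK1A 1A and 2093 without shControl 1C, which also gave the 16 higher; the cause was not tested. The share of CCND1 then differed by -5.25 to -2.5 percentage points, that of CCNE1 by -0.86 to 2.85, turning sign without shDYRK1A 1B, that of CDK6 by -2.36 to -1.41 and that of CDKN1A by 5.9 to 7.52. Without division by length the share of CDK6 differed by -4.17. With the replicate letter as a block, 1394 genes were called lower and 28 higher, and 5 members lower. Deviations from the group means correlated by 0.151, 0.0729 and 0.128 for the letters 1A, 1B and 1C, not all above 0.1, so the letters were not taken as pairs, although each library correlated best with its own letter; the block changed no call of a member. Replicates differed by more than sampling noise, with a chi-square per gene of 4.76 to 19.9.

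The 9 expressed members had between 443 and 9854 raw counts per library.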

Other observations

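A few genes of the lists lie outside the rule for named genes and were chosen after their values were seen. CUL4A, the scaffold of the ubiquitin ligase in which DTL acts as receptor, went from 6356 ± 696 to 2835 ± 366 normalized counts (SD, n = 3), a log2 fold change of -1.16 (edgeR adjusted p = 5.49e-15) and of -0.76 under TMM (adjusted p = 1.71e-07). DDB1, the adaptor of the same ligase, was at -0.39 (adjusted p = 0.00636) and at 0.01 under TMM (adjusted p = 0.823). XPO1, the exportin that carries p27 out of the nucleus, fell by 0.92 on the log2 scale (adjusted p = 1.63e-10) and was at -0.52 under TMM (adjusted p = 9.23e-06).

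E2F5, a pocket protein partner under the expression filter, went from 408 ± 43.4 to 189 ± 34.9 normalized counts (SD, n = 3). Fitted with edgeR's filterByExpr, its log2 fold change was -1.11 (adjusted p = 2.66e-08).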
